A study of Mus musculus with 6 samples.

Results

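The mitochondrial genome of the mouse is a small circle that holds 37 annotated genes, whose symbols all begin with mt-, and every one of them was taken. They are 2 ribosomal RNAs (rRNAs), 13 messenger RNAs (mRNAs) and 22 transfer RNAs (tRNAs). Of the 37 genes, 28 had a row among the 24080 genes of the table, and 19 passed the filter on low values and were tested. The 19 are both rRNAs, all 13 mRNAs and 4 tRNAs. The other 9 tRNAs with a row fell below the filter, and the 9 tRNAs without one (mt-Tl1, mt-Tn, mt-Tc, mt-Td, mt-Tk, mt-Tr, mt-Th, mt-Ts2 and mt-Tl2) are not analysed here.

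The samples were 3 libraries labelled VEC-positive and 3 labelled VEC-null, all of total RNA from mouse endothelial cells (ECs) in culture. VEC is vascular endothelial cadherin, the adhesion molecule of endothelial junctions, encoded by Cdh5. VEC-null cells are an endothelial line obtained from embryonic stem cells in which both copies of the VEC gene are inactive, and VEC-positive cells are the same line given wild-type VEC back by a retrovirus. No treatment, time course or animal age is given, and the study calls its 3 libraries of each kind biological replicates. Because each cell type is 1 line, the p-values below measure the spread between libraries and do not separate VEC from other differences between the lines.

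Cdh5 itself ran against the labels. It had 794.3, 739.4 and 749.7 normalized counts (gene reads divided by 1 size factor per library, as deposited) in the libraries labelled VEC-positive, against 1334, 1439 and 1689 in those labelled VEC-null. By label its log2 fold change was -0.96 (SE 0.098, limma adjusted p = 0.000182). Gene-level counts do not show whether reads came from the null allele or from the transferred copy, so all directions below are given by label. Values of other endothelial genes are given by label for comparison. Cldn5, the tight junction protein claudin-5, had 429, 512 and 434 normalized counts in the libraries labelled VEC-positive, against 9.18, 5.51 and 4.43 in those labelled VEC-null (log2 fold change 6.01, SE 0.26, limma adjusted p = 2.14e-06). The log2 fold change was 1.88 for Ptprb, a receptor phosphatase that binds VEC (adjusted p = 3.08e-06), and 2.12 for Vwf, the von Willebrand factor (adjusted p = 8.82e-07). Reads per library ranged from 9598590 to 14136376 in the libraries labelled VEC-positive and from 6036155 to 11670273 in those labelled VEC-null. The third library labelled VEC-null stood apart, with 45.2 and 43.6 chi-square units per gene against the other libraries of its label, which differed from each other by 6.05. Of 12 endothelial markers, 11 were tested, of which 8 were higher and 1 (Cdh5) lower in the libraries labelled VEC-positive, with sums of 66560.5 to 68412 normalized counts, against 47053 to 49784 in those labelled VEC-null, while Sox17 is not analysed here. Markers of stem cells summed to between 0.974 and 12.9 normalized counts in the libraries labelled VEC-positive, against 3.15 to 9.18 in those labelled VEC-null. Blood markers summed to between 99.4 and 155 in the libraries labelled VEC-positive, against 83.3 to 409 in those labelled VEC-null, with Hbb-bt and Hba-a1 at 0. Mural and fibroblast markers summed to 196 to 237 in the libraries labelled VEC-positive and 117 to 200.4 in those labelled VEC-null, and the part of these cells in the results was not tested.

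Mitochondrial DNA is transcribed from both strands into long precursors that run through many genes. The tRNAs lie between most of the other genes, and their excision by nuclease cuts frees the rRNAs and mRNAs, an arrangement known as tRNA punctuation. The precursor of the heavy strand yields both rRNAs, 12 of the mRNAs and most tRNAs, while the precursor of the light strand yields 1 mRNA, mt-Nd6, and the remaining tRNAs. The mRNAs encode core subunits of respiratory complexes I, III and IV and of ATP synthase, and the rRNAs form the 2 subunits of the mitochondrial ribosome that translates them. All other proteins of mitochondria are encoded in the nucleus.

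Coordinates are those of mm10, and sequences are from the GENCODE transcripts of that build. On the mitochondrial chromosome, 28 genes lie on the plus strand (both rRNAs, the 12 heavy-strand mRNAs and 14 tRNAs) and 9 on the minus strand (mt-Nd6 and 8 tRNAs). The strand difference can be read from the first 60 bases of mt-Nd6 (chrM:14011-14070, minus strand) and of its neighbour mt-Cytb (chrM:14145-14204, plus strand), with each G in capitals.
mt-Nd6: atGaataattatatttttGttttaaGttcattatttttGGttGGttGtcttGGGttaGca
mt-Cytb: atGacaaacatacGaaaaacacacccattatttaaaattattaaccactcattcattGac
This stretch of mt-Nd6 holds 12 G and that of mt-Cytb 3. Over whole genes, G made up 28.1% of mt-Nd6 and 5.88 to 16.1% of the 12 heavy-strand mRNAs, and C made up 5.97% of mt-Nd6 and 22.1 to 29.97% of the others.

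The 4 tRNAs with enough reads to be tested are those for glycine (mt-Tg, chrM:9391-9458, plus strand), glutamine (mt-Tq, chrM:3772-3842, minus strand), tryptophan (mt-Tw, chrM:4950-5016, plus strand) and proline (mt-Tp, chrM:15356-15422, minus strand). They are shown with the anticodon in capitals.
mt-Tg: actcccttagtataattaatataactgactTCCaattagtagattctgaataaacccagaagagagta
mt-Tq: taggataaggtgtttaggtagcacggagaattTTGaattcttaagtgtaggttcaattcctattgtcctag
mt-Tw: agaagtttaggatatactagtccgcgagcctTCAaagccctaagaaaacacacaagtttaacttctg
mt-Tp: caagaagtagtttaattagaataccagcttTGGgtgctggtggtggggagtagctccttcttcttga
The gene of mt-Tg fills the space between mt-Co3, which ends at position 9390, and mt-Nd3, which begins at 9459, with no base between them.

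Several genes share bases, which limits how reads can be told apart. The longest overlap is the 43 bases shared by mt-Atp8 and mt-Atp6, which are kept on a single bicistronic mRNA. They are shown in capitals within chrM:7897-7999, plus strand.
mt-Atp8/mt-Atp6: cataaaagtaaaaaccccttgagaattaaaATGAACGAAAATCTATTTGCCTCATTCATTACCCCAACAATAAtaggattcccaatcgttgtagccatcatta
The mt-Nd4l and mt-Nd4 genes, also joined on 1 mRNA, share 7 bases. Counts of mRNAs are given by gene here, so both genes of such a pair are counted. The 14 bases shared by mt-Nd5 and mt-Nd6 lie on opposite strands. Whether reads were counted by strand is not stated, so reads of mt-Nd6 and of heavy-strand precursor from the same place cannot be told apart.

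Across the tested genes, 12 of 19 rose in the libraries labelled VEC-positive (adjusted p below 0.05 from limma), none fell and 7 did not pass. Over all 14032 genes tested, 20.9% were called higher, 16.4% lower and 37.3% in either direction. The 12 were mt-Rnr1, 10 of the 12 heavy-strand mRNAs and mt-Nd6, with log2 fold changes from 0.98 to 1.55. The count of none lower was the same at an unadjusted p below 0.05 (16 higher, 0 lower) and with edgeR and DESeq2 on recovered reads (13 higher and 0 lower with each). In 14 of the 19 the groups did not overlap, where 50% of all tested genes did not overlap (27.2% with the libraries labelled VEC-positive on top). Without the third library labelled VEC-null, 16 of the 19 were called higher. The median log2 fold change of all tested genes was -0.012, and that of the 19 was 1.11.

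**Figure D1:**
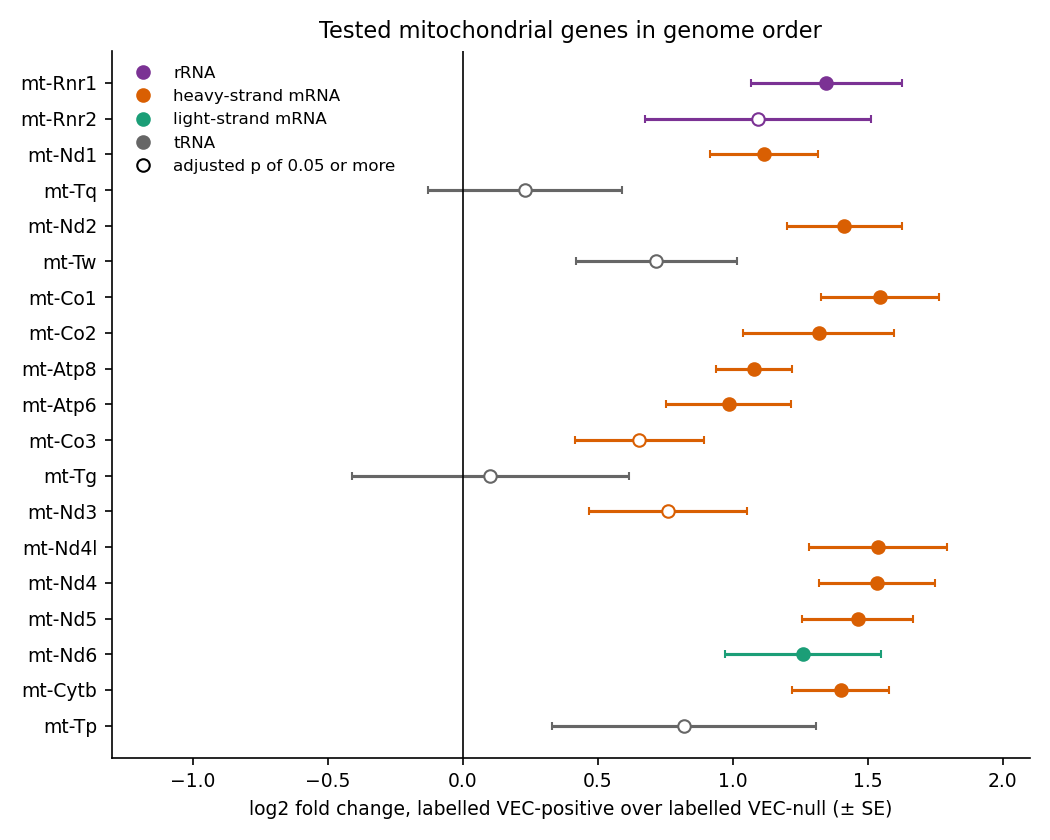
The log2 fold change of each of the 19 tested mitochondrial genes, VEC-positive over VEC-null by label, in genome order from top to bottom, with bars of 1 standard error from limma. All 13 mRNAs and both rRNAs lie to the right of 0, and open points mark the 7 genes that did not pass, mt-Rnr2, mt-Co3, mt-Nd3 and the 4 tRNAs.

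Reads of the mitochondrial genome took 18.0, 24.2 and 22.5% of reads in the libraries labelled VEC-positive, against 9.62, 11.6 and 14.9% in those labelled VEC-null. The lowest library labelled VEC-positive was above the highest labelled VEC-null. In bulk RNA, more mitochondrial RNA per cell and less of the other RNA per cell cannot be told apart. When libraries were scaled to equal totals, the median of all genes moved to -0.32 on the log2 scale, and 12 of the 19 were still called higher. Scaled to equal totals of reads outside the mitochondrial genome, the median was -0.16 and the count again 12.

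The rRNAs made up most of these reads. Both together took 16.0, 21.6 and 20.4% of reads in the libraries labelled VEC-positive, against 8.76, 10.5 and 13.5% in those labelled VEC-null. The small rRNA mt-Rnr1 (12S; chrM:70-1024) had 390653, 633891 and 461588 normalized counts in the libraries labelled VEC-positive, against 163470.4, 180711 and 234932 in those labelled VEC-null. Every library labelled VEC-positive was above every library labelled VEC-null, and the gene rose (log2 fold change 1.35, SE 0.28, adjusted p = 0.00668). The large rRNA mt-Rnr2 (16S; chrM:1094-2675) had 1402347, 1945552 and 1866616 normalized counts in the libraries labelled VEC-positive, against 645566, 787197 and 1030303 in those labelled VEC-null. Its groups did not overlap either, but the test did not pass (log2 fold change 1.09, SE 0.42, adjusted p = 0.0738). It passed without the third library labelled VEC-null (log2 fold change 1.27, adjusted p = 0.0288) and in edgeR and DESeq2. Per length, mt-Rnr2 was at 59.9 to 71.3 times the median mitochondrial mRNA of its library and mt-Rnr1 at 24.6 to 34.4 times. The kit was one for stranded total RNA, and whether rRNA of mitochondria was depleted before sequencing is not stated, so these levels describe the libraries.

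**Figure D2:**
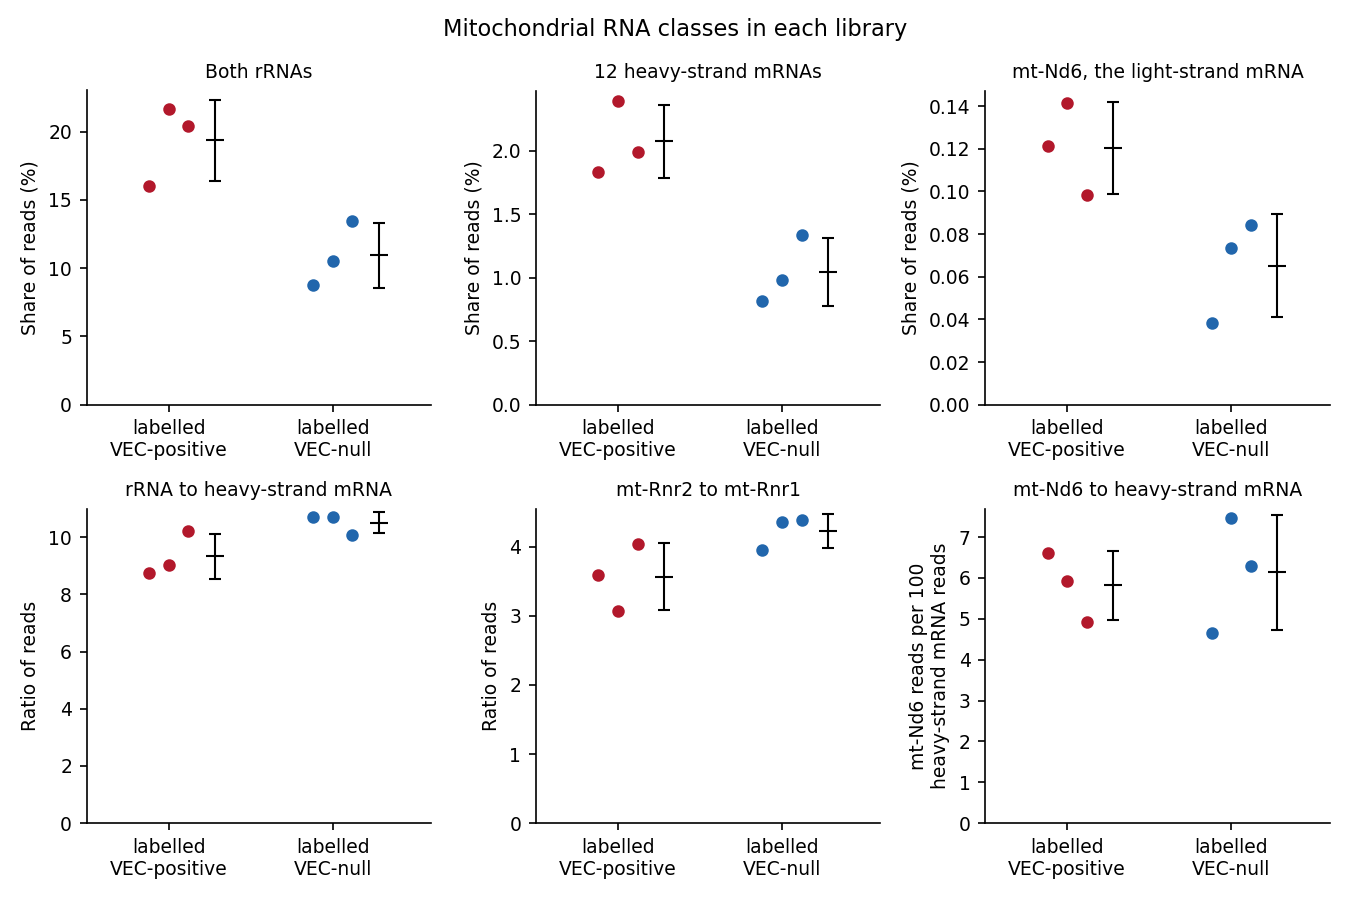
Share of each library's reads (%) from both rRNAs, the 12 heavy-strand mRNAs and mt-Nd6 (top row), and 3 ratios of reads within a library (bottom row), with 1 point per library and the mean ± SD of 3 libraries beside it. The shares of both rRNAs and of the heavy-strand mRNAs lie higher in every library labelled VEC-positive, while each of the 3 ratios overlaps between the labels.

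The 12 heavy-strand mRNAs together took 1.83, 2.40 and 1.99% of reads in the libraries labelled VEC-positive, against 0.818, 0.982 and 1.34% in those labelled VEC-null. Again the groups did not overlap. The median log2 fold change of the 12 was 1.36, and 10 of 12 rose.

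Complex I, which takes electrons from NADH, has 6 heavy-strand subunit mRNAs, and 5 of them rose. The mRNA of mt-Nd4l (chrM:9877-10173), a small membrane subunit, had 690.5, 1033 and 799.7 normalized counts in the libraries labelled VEC-positive, against 208, 262 and 425 in those labelled VEC-null (log2 fold change 1.54, SE 0.26, adjusted p = 0.00223). Its partner on the same mRNA, mt-Nd4 (chrM:10167-11544), had 19651, 26584 and 20587 normalized counts in the libraries labelled VEC-positive, against 5681, 7499 and 10349 in those labelled VEC-null (log2 fold change 1.54, SE 0.21, adjusted p = 0.000930). The ratio of mt-Nd4 to mt-Nd4l was 28.5, 25.7 and 25.7 in the libraries labelled VEC-positive and 27.3, 28.6 and 24.4 in those labelled VEC-null, so it overlapped between the labels. For mt-Nd5 (chrM:11742-13565) the means were 38097 ± 7405 normalized counts in the libraries labelled VEC-positive and 13944 ± 3445 in those labelled VEC-null (SD, n = 3 each). That difference passed (log2 fold change 1.46, SE 0.21, adjusted p = 0.000951). For mt-Nd2 (chrM:3914-4951) they were 11755 ± 2136 normalized counts in the libraries labelled VEC-positive and 4494 ± 1289 in those labelled VEC-null (log2 fold change 1.41, SE 0.21, adjusted p = 0.00137). The gene next to the rRNAs, mt-Nd1 (chrM:2751-3707), had means of 24052 ± 4216 normalized counts in the libraries labelled VEC-positive and 11236 ± 2819 in those labelled VEC-null (log2 fold change 1.11, SE 0.20, adjusted p = 0.00318). In none of these 5 genes did the groups overlap, and all 5 rose.

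The sixth, mt-Nd3 (chrM:9459-9806), had 1192, 1762 and 1522 normalized counts in the libraries labelled VEC-positive, against 681, 665 and 1450.5 in those labelled VEC-null. The third library labelled VEC-null was as high as the libraries labelled VEC-positive, so the groups overlapped, and the test did not pass (log2 fold change 0.76, SE 0.29, adjusted p = 0.0763). Without that library the log2 fold change was 1.13 (adjusted p = 0.000211).

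Cytochrome c oxidase, complex IV, has its 3 catalytic core subunits encoded here. The mRNA of mt-Co1 (chrM:5328-6872), the subunit that holds the oxygen-reducing centre, had 66726, 92489.98 and 77284 normalized counts in the libraries labelled VEC-positive, against 20575, 25984 and 35849 in those labelled VEC-null. It had the largest log2 fold change of the tested genes (log2 fold change 1.55, SE 0.22, adjusted p = 0.000962). The mRNA of mt-Co2 (chrM:7013-7696), which accepts electrons from cytochrome c, had 5904, 8982 and 6622 normalized counts in the libraries labelled VEC-positive, against 1962, 2633 and 4386 in those labelled VEC-null and rose (log2 fold change 1.32, SE 0.28, adjusted p = 0.00729). That of mt-Co3 (chrM:8607-9390) had 11597, 14606 and 13287 normalized counts in the libraries labelled VEC-positive, against 6214, 7402 and 12563 in those labelled VEC-null. Its groups overlapped through the third library labelled VEC-null, and it had the smallest fold change of the mRNAs (log2 fold change 0.65, SE 0.24, adjusted p = 0.0635). Without that library its log2 fold change was 0.95 (adjusted p = 0.000169).

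The only mitochondrial mRNA for complex III is mt-Cytb (chrM:14145-15288), which encodes cytochrome b. It had 12207, 19316 and 14429 normalized counts in the libraries labelled VEC-positive, against 4847, 5741 and 6654 in those labelled VEC-null. The lowest library labelled VEC-positive was well above the highest labelled VEC-null, and it rose (log2 fold change 1.40, SE 0.18, adjusted p = 0.000604). Both ATP synthase genes, kept on 1 mRNA, rose as well. For mt-Atp8 (chrM:7766-7969) the means were 5176 ± 756 normalized counts in the libraries labelled VEC-positive and 2451 ± 348 in those labelled VEC-null (log2 fold change 1.08, SE 0.14, adjusted p = 0.000639), and for mt-Atp6 (chrM:7927-8607), which forms part of the proton channel, they were 21271 ± 4136 normalized counts in the libraries labelled VEC-positive and 10962 ± 3265 in those labelled VEC-null (log2 fold change 0.98, SE 0.23, adjusted p = 0.0115). The ratio of mt-Atp6 to mt-Atp8 varied from 3.16 to 4.72 in the libraries labelled VEC-positive and from 2.77 to 5.48 in those labelled VEC-null, a wider spread than that of the mt-Nd4 and mt-Nd4l pair.

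Levels of different genes were compared per length, as normalized counts per kb. In the libraries labelled VEC-positive mt-Co1 stood first with 51025 ± 8383 (SD, n = 3), above the next gene without overlap. There followed mt-Atp6, mt-Nd6, mt-Atp8, mt-Nd1, mt-Nd5, mt-Co3, mt-Nd4, mt-Cytb, mt-Nd2 and mt-Co2 in that order, from 31235 ± 6073 down to 10482 ± 2355, and each of these overlapped its neighbour. Below them and without overlap came mt-Nd3 with 4288 ± 823, which overlapped mt-Nd4l with 2831 ± 588. In the libraries labelled VEC-null the order was mt-Co1 with 17779.6 ± 5013, then mt-Atp6, mt-Atp8, mt-Nd1, mt-Nd6, mt-Co3, mt-Nd5, mt-Nd4, mt-Cytb, mt-Co2, mt-Nd2 and mt-Nd3, each overlapping the next, and last mt-Nd4l with 1004 ± 379.5, below mt-Nd3 without overlap. Ranked within each library, mt-Nd3 was 12th and mt-Nd4l 13th in all 6, while mt-Atp6 ranged from 1st to 5th and mt-Co3 from 3rd to 8th. The highest mRNA exceeded the lowest by 17.2 to 18.6 times in the libraries labelled VEC-positive and by 16.2 to 23.6 times in those labelled VEC-null. Reads of near-identical nuclear copies, described below, bear on 7 of these levels. With the reads of all nuclear copies added, the order changed. First in all 6 libraries was then mt-Atp6, with 88574 ± 13965 normalized counts per kb in the libraries labelled VEC-positive and 45156 ± 10448 in those labelled VEC-null (SD, n = 3 each), while mt-Co1 was 2nd in each library labelled VEC-positive and 3rd in each labelled VEC-null. The level of mt-Co2 became 29087 ± 4896 in the libraries labelled VEC-positive and 12743 ± 3210 in those labelled VEC-null. Last in all 6 was still mt-Nd4l, but mt-Nd3 was 12th only in the libraries labelled VEC-positive and 9th or 10th in those labelled VEC-null.

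**Figure D3:**
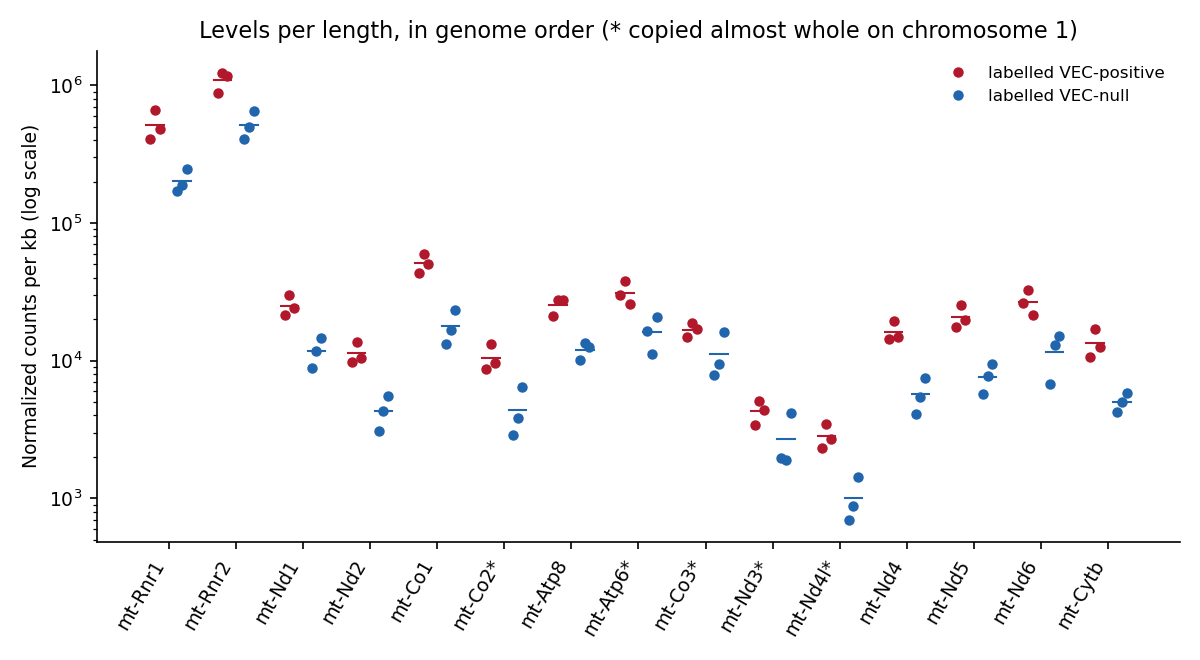
Normalized counts per kb (log scale) of the 2 rRNAs and 13 mRNAs in genome order, with 1 point per library and a line at the mean of 3, and an asterisk on the 5 genes copied almost whole on chromosome 1. Both rRNAs stand far above the mRNAs and mt-Nd4l stands last, and for mt-Co3 and mt-Nd3 the highest library labelled VEC-null reaches the range of those labelled VEC-positive.

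The light-strand mRNA, mt-Nd6 (chrM:13552-14070), encodes a further membrane subunit of complex I. It had 13588, 16878 and 11225 normalized counts in the libraries labelled VEC-positive, against 3522, 6736 and 7889.9 in those labelled VEC-null. All libraries labelled VEC-positive were above all labelled VEC-null, and it rose (log2 fold change 1.26, SE 0.29, adjusted p = 0.0103). It took 0.121, 0.142 and 0.0984% of reads in the libraries labelled VEC-positive, against 0.0381, 0.0733 and 0.0841% in those labelled VEC-null. Per length it was at 1.36 to 1.97 times the median heavy-strand mRNA in each of the 6 libraries. Within the libraries its reads per 100 heavy-strand mRNA reads were 6.62, 5.91 and 4.93 in the libraries labelled VEC-positive, against 4.66, 7.46 and 6.29 in those labelled VEC-null. These overlapped, with a log2 difference of -0.060 (exact permutation test, two-sided, p = 0.8). Whether reads were counted by strand is not stated, so all these values of mt-Nd6 may include reads of heavy-strand precursor from the same place.

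The tRNAs gave few reads, 1416 of the 11375865 mitochondrial reads in all libraries, and 977 of them were from mt-Tg. Mature tRNAs are short and carry many modified bases. None of the 4 tested tRNAs passed (the groups of mt-Tw did not overlap). The tRNA for glycine, mt-Tg, had 189, 178 and 122 normalized counts in the libraries labelled VEC-positive, against 350.4, 138 and 68.3 in those labelled VEC-null. The libraries labelled VEC-null spanned a wider range than those labelled VEC-positive, and its fold change was the smallest of the tested genes (log2 fold change 0.10, SE 0.51, adjusted p = 0.893). The other 3 were near the filter. The tRNA for proline, mt-Tp, had 12.8, 22.4 and 16.1 normalized counts in the libraries labelled VEC-positive, against 4.59, 8.66 and 17.7 in those labelled VEC-null (log2 fold change 0.82, SE 0.49, adjusted p = 0.228). That for tryptophan, mt-Tw, had 15.2, 18.5 and 17.8 normalized counts in the libraries labelled VEC-positive, against 9.18, 10.2 and 10.6 in those labelled VEC-null (log2 fold change 0.72, SE 0.30, adjusted p = 0.0953). For glutamine, mt-Tq had 14.0, 16.6 and 16.9 normalized counts in the libraries labelled VEC-positive, against 13.8, 8.66 and 19.5 in those labelled VEC-null (log2 fold change 0.23, SE 0.36, adjusted p = 0.646). Of the 9 tRNAs below the filter, mt-Ti and mt-Ts1 had at most 24 reads in a library and the other 7 (mt-Tf, mt-Tv, mt-Tm, mt-Ta, mt-Ty, mt-Te and mt-Tt) at most 6. One of them, the methionine tRNA mt-Tm, had 2, 5 and 2 reads in the libraries labelled VEC-positive and 0 in each labelled VEC-null, where a count of 0 allows up to 3 reads per library. With no filter on low values, mt-Tm and mt-Rnr2 were the 2 genes added to those called higher.

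A ratio of 2 mitochondrial classes within a library does not depend on how the library was scaled. In all, 4 such ratios were compared by exact permutation over the libraries (two-sided), where 3 against 3 cannot give a p below 0.1, and p-values were adjusted over the 4. The rRNA to heavy-strand mRNA ratio was 8.73, 9.04 and 10.2 in the libraries labelled VEC-positive, against 10.7, 10.7 and 10.1 in those labelled VEC-null. Only the third library of each label crossed over (log2 difference -0.17, exact p = 0.2, adjusted p = 0.267). The ratio of mt-Rnr2 to mt-Rnr1 was 3.59, 3.07 and 4.04 in the libraries labelled VEC-positive, against 3.95, 4.36 and 4.39 in those labelled VEC-null (log2 difference -0.25, exact p = 0.2, adjusted p = 0.267). For mt-Nd6 to heavy-strand mRNA, given above, the adjusted p was 0.8. The tRNA reads per 10000 heavy-strand mRNA reads were 12.7, 9.52 and 9.36 in the libraries labelled VEC-positive, against 52.1, 20.9 and 10.8 in those labelled VEC-null (log2 difference -1.13, exact p = 0.2, adjusted p = 0.267). So no ratio passed, and this design could not have passed the threshold of 0.05 with any. Left without mt-Tg, a choice made after the values were seen, the tRNAs gave 3.47, 3.28 and 4.01 reads per 10000 in the libraries labelled VEC-positive, against 5.67, 5.67 and 5.37 in those labelled VEC-null. These did not overlap (log2 difference -0.64, exact p = 0.1, the smallest this design gives), but they rest on 439 reads in all libraries.

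The 19 genes were also compared after each library was scaled to its summed heavy-strand mRNAs, which asks how a mitochondrial RNA moved relative to that sum. A heavy-strand mRNA under test is itself part of the sum, and mt-Co1 made up 27.2 to 34.0% of it. On this scale 2 of 19 were called lower, none was called higher and 17 did not pass. At an unadjusted p below 0.05 the counts were 4 lower and 0 higher. The scale moves nearly all nuclear genes down (median log2 fold change -1.32), so that 83.9% of all tested genes were called lower, 2.31% higher and 86.2% in either direction, and the adjusted p-values are close to the unadjusted ones. The adjustment thus does little to guard the calls among the 19, and p-values were not adjusted over the 19 alone. In addition, limma draws the variance of each gene toward a trend fitted over all tested genes. For mt-Co1 its SE was 0.24, while the SE from the library values alone was 0.033 (log2 difference 0.23). For mt-Nd4 these SEs were 0.22 and 0.052, and for mt-Atp6 0.26 and 0.26. A gene that did not pass on this scale is thus not shown to be unchanged. Both genes called lower flank mt-Tg. The log2 fold change of mt-Co3 was -0.67 (SE 0.22, unadjusted p = 0.00934, adjusted p = 0.0124) and that of mt-Nd3 was -0.56 (SE 0.23, unadjusted p = 0.0308, adjusted p = 0.0366). The first was called lower in all 15 alternatives run on this scale and the second in 10 of 15. The call of mt-Nd3 was lost without any 1 of the libraries labelled VEC-positive (adjusted p = 0.099, 0.073 and 0.0879), without the third labelled VEC-null (adjusted p = 0.130) and in limma without a trend (adjusted p = 0.0681). On the same scale mt-Tg had -1.21 (SE 0.55, unadjusted p = 0.0448, adjusted p = 0.0518) and mt-Tq -1.01 (SE 0.46, unadjusted p = 0.0462, adjusted p = 0.0533), both short of the threshold after adjustment. The result for mt-Tg depended on the setting, since it was called lower in 7 of 15 alternatives and its log2 fold change ran from -1.97 without the third library labelled VEC-null to -0.43 without the first. That of mt-Tq was called lower in 2 of 14.

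The same can be read from the make-up of the heavy-strand mRNA reads. The share of mt-Co3 was 5.65, 5.12 and 5.84% in the libraries labelled VEC-positive, against 8.23, 8.20 and 10.01% in those labelled VEC-null. That of mt-Nd3 was 0.581, 0.617 and 0.669% in the libraries labelled VEC-positive, against 0.901, 0.737 and 1.16% in those labelled VEC-null. In both, every library labelled VEC-positive was below every library labelled VEC-null, the third included. At the other end, mt-Co1 took 32.5, 32.4 and 34.0% in the libraries labelled VEC-positive, against 27.2, 28.8 and 28.6% in those labelled VEC-null. The share of mt-Nd4 was 9.57, 9.31 and 9.05% in the libraries labelled VEC-positive, against 7.52, 8.31 and 8.25% in those labelled VEC-null. For mt-Nd5 it was 15.7, 16.3 and 15.7% in the libraries labelled VEC-positive, against 13.8, 15.6 and 13.8% in those labelled VEC-null. These 3 lay higher without overlap in the libraries labelled VEC-positive. Besides mt-Co3 and mt-Nd3, mt-Nd1 lay lower without overlap, with 9.94, 10.04 and 10.1% in the libraries labelled VEC-positive, against 11.1, 12.5 and 11.2% in those labelled VEC-null. In all, 6 of 12 shares did not overlap, 3 higher and 3 lower, where 83.7% of all tested genes did not overlap on this scale (2.62% with the libraries labelled VEC-positive on top). The other 6 overlapped. Shares sum to 100% in each library, so a higher share of mt-Co1 and lower shares of other genes are not separate facts. The ratio of mt-Co3 to mt-Co1 was 0.174, 0.158 and 0.172 in the libraries labelled VEC-positive and 0.302, 0.285 and 0.350 in those labelled VEC-null.

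**Figure D4:**
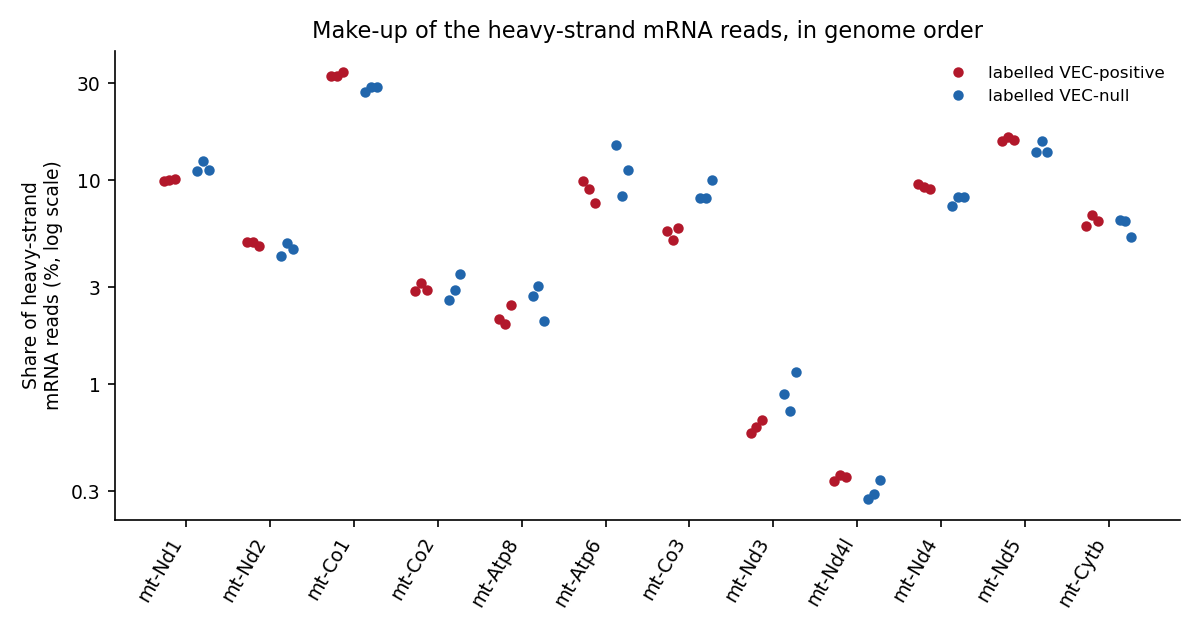
Share of each heavy-strand mRNA in the summed reads of the 12 (%, log scale), in genome order, with 1 point per library. The shares of mt-Co1, mt-Nd4 and mt-Nd5 lie higher, and those of mt-Nd1, mt-Co3 and mt-Nd3 lower, in all 3 libraries labelled VEC-positive.

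Part of the mitochondrial genome has a near-identical copy in the nucleus, and reads from it can be counted at either place. A search of the annotated transcripts found 16 nuclear copies of at least 90% identity, 7 of them of at least 99%. These 7 lie within 4663 bases of chromosome 1 (chr1:24611535-24616197, minus strand) in the same order as in mitochondria, and 5 of the 6 distances between neighbours are equal to those of the mitochondrial genome (the distance of mt-Nd3 and mt-Nd4l is 418 bases there and 419 on chromosome 1). They are Gm29216 (mt-Co1, 31.3% of the gene), Gm28661 (mt-Co2), Gm10925 (mt-Atp6), Gm28437 (mt-Co3), Gm28438 (mt-Nd3), Gm10222 (mt-Nd4l) and Gm28439 (mt-Nd4, 63.6% of the gene). Over 4140 aligned bases there were 2 mismatches, and 5 of the 7 copies were identical. Both mismatches are shown in capitals, the mitochondrial gene first (mt-Co1 at chrM:6390-6413 and mt-Nd3 at chrM:9459-9481, plus strand), then its copy (Gm29216 at chr1:24616165-24616188 and Gm28438 at chr1:24613097-24613119, minus strand).
mt-Co1: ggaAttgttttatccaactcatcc
Gm29216: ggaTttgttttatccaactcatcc
mt-Nd3: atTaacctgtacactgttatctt
Gm28438: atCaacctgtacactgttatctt
Counted from the first base of the mitochondrial gene, they are A1066T and T3C. Outside these positions a read within the aligned bases could match both places equally, and how such reads were assigned is not stated. The other 6 heavy-strand and light-strand mRNAs (mt-Nd1, mt-Nd2, mt-Atp8, mt-Nd5, mt-Nd6 and mt-Cytb) and both rRNAs have no copy of at least 99% identity in the annotation. However, mt-Atp8 lies between mt-Co2 and mt-Atp6, and mt-Tg between mt-Co3 and mt-Nd3. The starts of these neighbours are 914 and 852 bases apart in both places. Only annotated transcripts and matches of at least 100 bases were searched. Whether the block also holds mt-Atp8 and mt-Tg was not tested.

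The copies held many reads. Over all libraries, the reads of the copy were 1.83 times those of mt-Atp6, 1.61 times those of mt-Co2, 1.49 times those of mt-Nd3 and of mt-Nd4l, 1.31 times those of mt-Co3, 0.348 times those of mt-Nd4 and 0.185 times those of mt-Co1. Together the 7 copies took 0.740, 0.905 and 0.793% of reads in the libraries labelled VEC-positive, against 0.432, 0.458 and 0.585% in those labelled VEC-null. All 7 were called higher in the libraries labelled VEC-positive, where 20.9% of all tested genes were. Their log2 fold changes ran from 0.54 to 1.76 (median 1.20). For Gm29216 the counts were 12927, 18478 and 14241 normalized counts in the libraries labelled VEC-positive, against 3729, 4676 and 4976 in those labelled VEC-null (log2 fold change 1.76, SE 0.16, adjusted p = 0.0000897). The smallest change was that of Gm28438, with 1775, 2492 and 2149 normalized counts in the libraries labelled VEC-positive, against 1333, 1264 and 1832 in those labelled VEC-null (log2 fold change 0.54, SE 0.17, adjusted p = 0.0354), and the next smallest that of Gm28437 (log2 fold change 0.58, SE 0.16, adjusted p = 0.0239). The copies of mt-Nd3 and mt-Co3 had the 2 smallest fold changes among the copies, as mt-Nd3 and mt-Co3 had among the mRNAs. Since the same reads can match a gene and its copy, these are not separate observations. The ratio of copy to mitochondrial reads overlapped between the labels for 6 of the 7. For Gm28439, Gm28437, Gm28661, Gm10222 and Gm28438, the first and second libraries labelled VEC-null lay above every library labelled VEC-positive, and the third below all. The ratio of Gm28438 to mt-Nd3 was 1.49, 1.41 and 1.41 in the libraries labelled VEC-positive, against 1.96, 1.90 and 1.26 in those labelled VEC-null. Only the ratio of Gm29216 to mt-Co1 did not overlap. It was 0.194, 0.200 and 0.184 in the libraries labelled VEC-positive, against 0.181, 0.180 and 0.139 in those labelled VEC-null.

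**Figure D5:**
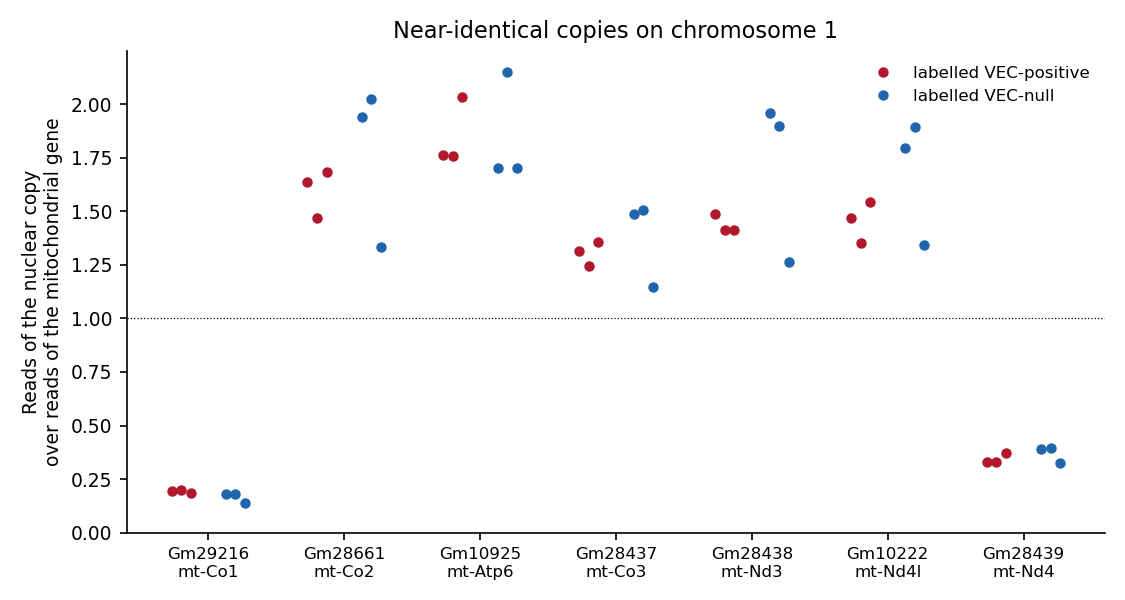
Reads of each near-identical copy on chromosome 1 divided by the reads of the mitochondrial gene it matches, with 1 point per library and a dotted line at equal reads. There, 5 copies hold more reads than their mitochondrial gene in every library, and those of mt-Co1 and mt-Nd4, which cover only part of the gene, hold fewer.

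When the reads of all nuclear copies were added to their mitochondrial genes, a choice made after the data were seen, 13 of the 19 were called higher and none lower. The added one was mt-Co3 (log2 fold change 0.61, SE 0.20, adjusted p = 0.0427 from limma), while mt-Nd3 remained above the threshold (log2 fold change 0.62, adjusted p = 0.0523). With copies added, mt-Co3 made up 9.19, 8.26 and 9.69% in the libraries labelled VEC-positive, against 13.1, 13.6 and 14.8% in those labelled VEC-null of the heavy-strand mRNA reads. The share of mt-Nd3 became 1.02, 1.07 and 1.136% in the libraries labelled VEC-positive, against 1.71, 1.42 and 1.80% in those labelled VEC-null. Both were thus still lower in every library labelled VEC-positive. Of the 12 shares, 7 then did not overlap: mt-Nd2, mt-Co1, mt-Nd4l, mt-Nd4 and mt-Nd5 lay higher and mt-Co3 and mt-Nd3 lower, while mt-Nd1 overlapped. Outside the block on chromosome 1, 4 further copies held more than 1 read per 100 of their counterpart. Over all libraries the ratio was 0.209 for Gm13341 to mt-Co2, 0.0299 for Gm13340 to mt-Co1 and 0.0175 for Gm13339 to mt-Nd2, all on chromosome 2, and 0.0185 for Gm11407 on chromosome 4 to mt-Nd5. Of these Gm13341 rose (log2 fold change 0.91, SE 0.21, adjusted p = 0.0113) and so did Gm13339 (log2 fold change 0.89, SE 0.25, adjusted p = 0.0241). Gm20594 on chromosome 6, named after its values were seen, which shares 439 bases at 88.4% identity with mt-Rnr2, took 0.0944, 0.0514 and 0.106% of reads in the libraries labelled VEC-positive, against 0.151, 0.227 and 0.0775% in those labelled VEC-null and did not pass (log2 fold change -0.48, adjusted p = 0.367).

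Nuclear genes that act on mitochondrial RNA were described by lists, as counts beside the 20.9% higher and 16.4% lower of all tested genes. For transcription, none of 9 passed in either direction (limma; at an unadjusted p below 0.05, 1 higher; edgeR and DESeq2, 0; 0 to 1 higher when a library was left out). Higher without the third library labelled VEC-null was Polrmt, the polymerase (log2 fold change 0.43, SE 0.14, adjusted p = 0.0276), and without the first was Tfam (log2 fold change 0.30, SE 0.087, adjusted p = 0.0351). Tfam, which packages mitochondrial DNA and starts its transcription, had 470.05, 474 and 463 normalized counts in the libraries labelled VEC-positive, against 444, 384 and 375 in those labelled VEC-null (log2 fold change 0.23, SE 0.092, adjusted p = 0.0857). Its groups did not overlap, though it did not pass. Tfb2m, which opens the promoter for the polymerase, had 217, 229 and 201 normalized counts in the libraries labelled VEC-positive, against 228, 209 and 295 in those labelled VEC-null (log2 fold change -0.16, SE 0.14, adjusted p = 0.409). Of 15 genes that copy and maintain mitochondrial DNA, 2 rose and 4 fell (median log2 fold change -0.21). Among them were Primpol, which primes replication past damage (log2 fold change -0.71, SE 0.17, adjusted p = 0.0114), and Rrm2b, which supplies nucleotides (log2 fold change 0.42, SE 0.11, adjusted p = 0.0205). Exog, Top1mt and Lig3 also fell and Slc25a36 rose. When a library was left out, 0 to 2 of the 15 were higher and 2 to 4 lower.

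Of 19 genes for cleavage and modification of mitochondrial RNA, 1 rose and 1 fell. Nsun2, a cytosine methyltransferase of tRNAs, fell (log2 fold change -0.49, SE 0.090, adjusted p = 0.00364), and Trmt61b, an adenine methyltransferase named after its values were seen, rose at low counts of 28.5 ± 8.15 in the libraries labelled VEC-positive and 4.53 ± 4.44 in those labelled VEC-null (SD, n = 3 each). Of 18 genes for stability and decay of mitochondrial mRNA, 1 rose and 3 fell. Pnpt1, the polynucleotide phosphorylase that degrades mitochondrial RNA with a helicase, had 378, 382 and 317 normalized counts in the libraries labelled VEC-positive, against 539, 493 and 739 in those labelled VEC-null (log2 fold change -0.70, SE 0.16, adjusted p = 0.00977). Every library labelled VEC-positive was below every one labelled VEC-null. Lrpprc, which binds and stabilizes mitochondrial mRNAs, had 443, 475 and 434 normalized counts in the libraries labelled VEC-positive, against 583, 567 and 700.4 in those labelled VEC-null and fell too (log2 fold change -0.45, SE 0.10, adjusted p = 0.0105). The third was Fastkd2, an RNA-binding protein of mitochondria (log2 fold change -0.65, SE 0.20, adjusted p = 0.0371), and the one that rose was Pde12, which trims poly(A) tails there (log2 fold change 0.50, SE 0.15, adjusted p = 0.0312). Of 17 genes for assembly of the mitochondrial ribosome, 2 fell and none rose (the same none at an unadjusted p below 0.05 and in edgeR and DESeq2). They were Eral1, a chaperone of the 12S rRNA (log2 fold change -0.60, SE 0.17, adjusted p = 0.0280), and Mterf4 (log2 fold change -0.40, SE 0.13, adjusted p = 0.0436). When a library was left out, 0 to 3 cleavage and modification genes were higher and 1 lower, 0 to 2 stability and decay genes were higher and 2 to 3 lower, and 0 to 1 assembly gene was lower.

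Genes of the nuclear proteins that join the products of these RNAs were called in both directions. Of all tested genes, 20.9% were called higher and 16.4% lower. Of 76 proteins of the mitochondrial ribosome, 1 rose (Mrpl43) and 5 fell (Mrpl33, Mrpl30, Mrps9, Mrps10 and Mrps30), with a median log2 fold change of -0.064. Of 76 nuclear subunits of the respiratory chain and ATP synthase, 11 rose and 11 fell (median -0.067). Complex I had 7 of 36 higher and 4 lower. Its accessory subunit Ndufa8 had 1032, 1111 and 1079.7 normalized counts in the libraries labelled VEC-positive, against 554, 517 and 559 in those labelled VEC-null (log2 fold change 0.98, SE 0.074, adjusted p = 0.0000418). In contrast Ndufs1, its largest subunit with iron-sulfur clusters, had 405, 471 and 415 normalized counts in the libraries labelled VEC-positive, against 699, 719 and 776 in those labelled VEC-null (log2 fold change -0.77, SE 0.091, adjusted p = 0.000387). In neither gene did the groups overlap. Complex IV had 1 of 11 higher (Cox6c) and 4 lower (Cox7c, Cox7b, Cox5b and Cox6b1), and ATP synthase 3 of 16 higher (Atp5j, Atp5h and Atp5d) and 1 lower, the inhibitor Atpif1 (log2 fold change -0.60, SE 0.10, adjusted p = 0.00238). Complex II had 1 of 4 lower (Sdhc) and complex III 1 of 9 lower (Uqcrfs1), and neither had any higher (limma at an unadjusted p below 0.05, edgeR and DESeq2 also 0), except that Sdhb of complex II was higher without the third library labelled VEC-null (log2 fold change 0.34, SE 0.10, adjusted p = 0.0246). That library also set other counts, since without it 5 ribosomal proteins were higher and 9 lower, and 5 subunits of ATP synthase were higher and 4 lower. Without each of the other libraries in turn, 0 to 2 ribosomal proteins were higher and 2 to 4 lower, 3 to 6 subunits of complex I were higher and 3 to 4 lower, and 0 to 1 subunit of complex IV was higher and 2 to 4 lower. Of the 13 mitochondrial mRNAs that encode partners of these subunits, 11 rose, and the difference between the 2 sets was not tested.

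Of 12 tested regulators of mitochondrial biogenesis, 4 rose and 1 fell (median log2 fold change 0.38). Gabpa, a subunit of the factor that binds promoters of many respiratory genes, had 1591, 1654 and 1553 normalized counts in the libraries labelled VEC-positive, against 1027, 1057 and 1026 in those labelled VEC-null (log2 fold change 0.63, SE 0.066, adjusted p = 0.000219). Ppard, a lipid-sensing nuclear receptor, rose (log2 fold change 1.01, SE 0.10, adjusted p = 0.000142), as did the deacetylase Sirt1 (log2 fold change 0.60, SE 0.12, adjusted p = 0.00536) and the coactivator Pprc1 (log2 fold change 0.50, SE 0.11, adjusted p = 0.0106), while the coactivator Ppargc1b fell. When a library was left out, 3 to 6 of the 12 were higher and 0 to 1 lower. Of 15 nuclear markers of mitochondrial mass, 1 rose (Cycs, cytochrome c) and 2 fell (Slc25a5, an adenine nucleotide carrier, and Hspd1, a matrix chaperone), with a median of 0.015. The rise of Cycs was lost in edgeR and DESeq2, which called 0 of the 15 higher (3 lower in edgeR and 2 in DESeq2). Without the third library labelled VEC-null 5 were higher and 2 lower (Timm23, Vdac2, Slc25a3 and Tomm20 were added), and without any other library 0 were higher and 1 to 3 lower. Of 11 genes for mitophagy, fission and fusion, 4 rose and none fell (limma at an unadjusted p below 0.05, edgeR and DESeq2 also 0 lower). Bnip3l, a receptor for removal of mitochondria, had 2602, 2716 and 2741 normalized counts in the libraries labelled VEC-positive, against 1426, 1555 and 1919 in those labelled VEC-null (log2 fold change 0.73, SE 0.11, adjusted p = 0.00139). The kinase Pink1 (log2 fold change 0.47, SE 0.094, adjusted p = 0.00575) and the fission factor Fis1 (log2 fold change 0.50, SE 0.11, adjusted p = 0.00800) rose too. Of 8 tested stress genes, Atf4 rose (log2 fold change 0.31, SE 0.077, adjusted p = 0.0140) and Ddit3 fell (log2 fold change -0.99, SE 0.25, adjusted p = 0.0148), both calls being lost without the first or the third library labelled VEC-positive.

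Noncoding RNAs of the nuclear genome were compared as well. Of 4 tested RNAs kept in the nucleus, none passed (limma; 0 at an unadjusted p below 0.05 and in DESeq2; edgeR had 1 lower unadjusted). Without the third library labelled VEC-null, 2 of the 4 were lower, Rian (log2 fold change -0.95, SE 0.22, adjusted p = 0.00674) and Kcnq1ot1 (log2 fold change -0.44, SE 0.14, adjusted p = 0.0304). Malat1, the most abundant, had 41608, 35338 and 31248 normalized counts in the libraries labelled VEC-positive, against 28080.00, 39105 and 30106 in those labelled VEC-null and overlapped between the labels (log2 fold change 0.16, SE 0.16, adjusted p = 0.483). Of 6 structural RNAs, 2 rose and none fell, with 3 higher and 1 lower (Rpph1, the RNA of ribonuclease P) without that library and 1 to 2 higher and none lower without any other. Rn7sk, the scaffold that holds a kinase of transcription elongation inactive, had 97427, 144294 and 89947 normalized counts in the libraries labelled VEC-positive, against 32493, 35842 and 51359 in those labelled VEC-null (log2 fold change 1.47, SE 0.24, adjusted p = 0.00194). Its groups did not overlap, and its part in the mitochondrial shares was not tested. The other that rose was Rn7s1, with means of 402 and 245 normalized counts by label (log2 fold change 0.68, SE 0.19, adjusted p = 0.0251). Rn7s2, with means of 6491 and 5928, did not pass (log2 fold change 0.17, SE 0.19, adjusted p = 0.520). Over all lists, 28 of 286 entries were higher and 30 lower, where 20.9% of all tested genes were higher and 16.4% lower. These counts became 50 higher and 41 lower without the third library labelled VEC-null.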

How the data were processed

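RNA of 3 VEC-positive and 3 VEC-null libraries, grouped by their labels, was sequenced as total RNA. Per the submitters' processing notes, the build was mm10 and the tools included DESeq2 1.14, TopHat2 2.1.1 and Trim Galore. The sources used here do not state the counting program, its strand setting or the annotation. The deposited signal values are gene counts that the authors had divided by 1 size factor per library. All values (100%) were whole multiples of 1 step within 0.01 of a read, so whole reads could be recovered, 6036155 to 14136376 per library. PCR duplicates count as reads.

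Symbols for 23908 of 24080 genes came from GENCODE M21. A gene was tested if at least 3 libraries had a normalized count of 10 or more, which left 14032 genes. Their log2(value + 1) was fitted in limma 3.58.1 (R 4.3.3) with a trend of variance on mean. Tests were two-sided, p-values were adjusted over the 14032 genes by the Benjamini-Hochberg method, and the threshold was 0.05. Fold changes on this scale understate those of low genes. Levels per kb used annotated gene lengths. Nuclear copies were found with BLAST 2.17.0 among annotated transcripts (at least 90% identity over at least 100 bases and 80% of the copy). Alternatives were pseudocounts of 0.25 and 8, a filter of 50 or none, other scalings, recovered reads in edgeR 4.0.16 and in DESeq2 1.42.0, limma without a trend, the replicate number as a block and leaving out each library. Adding the reads of nuclear copies to their counterparts, scaling to mt-Nd1, mt-Nd2, mt-Nd5 and mt-Cytb (4 heavy-strand mRNAs with no copy of at least 99% identity, leaving out mt-Atp8, which overlaps mt-Atp6) and leaving out mt-Tg were chosen after seeing the data. The main limma fit and the edgeR and DESeq2 fits were tested on simulated data, and the other alternatives were not.

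The mitochondrial genes and the gene lists were chosen with earlier results of these data known. Genes named are all mitochondrial genes, with values by library for the rRNAs, mt-Nd6 and the extremes of each class. Each list adds at most 4 members that passed (those that changed most, with a mean of 50 or more) and at most 2 that did not. Nuclear copies are named where their reads exceed 1 in 100 of their counterpart. Other genes were given values or named after these had been seen. Some members of the lists are counted but not reported here by name. Figures were drawn with matplotlib 3.10.9.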

Additional observations from a re-analysis of the deposited data

How the results depend on the processing

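The 12 mitochondrial genes called higher were called higher in all 18 alternatives. The count of genes called higher was 12 to 16 when a library was left out, 16 being without VEC-null 3, which added mt-Rnr2, mt-Co3, mt-Nd3 and mt-Tp. Relative to the heavy-strand mRNAs, where 0 were higher and 2 lower, 1 gene was higher with no filter on low values (mt-Tm, with 9 reads in all), and 1 to 3 were lower when a library was left out, with 1 lower without VEC-positive 1 and 1 without VEC-positive 2. Over the nuclear lists, with 28 higher and 30 lower, leaving out a library gave 14 to 50 higher and 17 to 41 lower. These were 17, 14, 18 and 50 higher without VEC-positive 1, VEC-positive 2, VEC-null 2 and VEC-null 3, and 17 lower without VEC-positive 3. Scaled to equal totals, the lists had 9 higher and 120 lower, and scaled to equal totals outside the mitochondrial genome 14 higher and 51 lower, which goes with the shift of the median of all genes. Under equal totals, 4 log2 fold changes above 0 that were called under one of the 2 scalings or the other turned below 0, -0.28 for Mrps5, -0.30 for Cox7a2l, -0.078 for Cycs and -0.29 for Opa1. Among the mitochondrial genes, mt-Tg (-0.21) and mt-Tq (-0.060), called in no alternative, turned below 0 as well, and over all alternatives mt-Tg lay between -0.45 and 0.72.

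The mitochondrial share of reads kept its direction throughout, with a log2 difference of 0.70 to 1.02 when a library was left out (0.85 with all). So did the rRNA to mRNA ratio (-0.24 to -0.13, against -0.17 with all, and nearer 0 at -0.078 with the reads of nuclear copies added and -0.087 with the geometric mean of the 12 mRNAs) and the mt-Rnr2 to mt-Rnr1 ratio (-0.35 to -0.15). The tRNA ratio lay between -1.66 and -0.53, the smaller being without VEC-null 1, and the mt-Nd6 ratio on either side of 0 (-0.25 to 0.094, and 0.032 with copies added). Libraries with the same number did not deviate together (correlations of 0.076, -0.33 and -0.30), so the replicate numbers do not pair them. With the replicate block, 12 mitochondrial genes were higher and 0 lower, 3 were lower relative to the heavy-strand mRNAs, and 19 list entries were higher and 20 lower. The differences of the share and of the 4 ratios are the same with the block as without it, since they are means of the same values (0.85, -0.17, -0.25, -0.060 and -1.13). Depth limits the tRNAs most, with 1416 reads in all libraries.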
